A study of Mus musculus with 8 samples.

Results

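From the mouse chromosome 11 cluster, 9 CC chemokine ligand genes were followed in LPS-stimulated macrophages with and without ursodeoxycholic acid (UDCA). They were Ccl2, Ccl7, Ccl12, Ccl8, Ccl5, Ccl9, Ccl6, Ccl3 and Ccl4. These 9 genes were taken by name from a table of 55487 mouse genes, and all 9 were found. The cells were J774A.1, an established mouse macrophage line. LPS, from the outer membrane of Gram-negative bacteria, activates macrophages through TLR4. UDCA belongs to the secondary bile acids. All 8 libraries came from cells given LPS (1 μg/mL), 4 with LPS alone and 4 with LPS + UDCA (1 mM), for 24 h. The comparison asked how UDCA changed the transcriptome of stimulated macrophages. No library without LPS was analysed here, so the values do not show how far LPS itself had raised a gene. The 8 libraries come from one cell line, and nothing in the labels says that replicates were separate cultures, so p-values measure the spread between these libraries only.

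Values are TPM, a transcript abundance in which the reads of a gene are divided by its length and scaled to the library, so that levels can be compared between genes. TPM keeps no depth, so the read number behind each value is unknown and the only error given is the spread between libraries. Fold changes from the model are on the log2(TPM + 1) scale, where the change of a scarce gene is understated. A gene was called when its false discovery rate was under 0.05 and its fold change at least 2. The deposited TPM summed to between 958918 and 977485 per library, and no 2 libraries were identical (0 of 28 pairs).

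CC chemokines are small secreted proteins that attract leukocytes through G protein-coupled receptors, and the family is named for a pair of adjacent cysteines near the start of the mature protein. The monocyte chemoattractant (MCP) group, Ccl2, Ccl7, Ccl12 and Ccl8, lies together. Ccl2, Ccl7 and Ccl12 act through the receptor CCR2, which draws monocytes out of bone marrow and into inflamed tissue. Ccl3 and Ccl4 encode the macrophage inflammatory proteins MIP-1α and MIP-1β, and Ccl5 encodes RANTES. The products of these genes attract monocytes, T cells and other leukocytes, those of Ccl3 and Ccl5 in part through CCR1. Ccl9 (MIP-1γ) and Ccl6 (C10) are rodent genes whose products act through CCR1. In activated macrophages most of these genes are known targets of NF-κB, and Ccl5 is also a target of interferon regulatory factors.

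The coding sequences show what the 9 genes share and where they part. Each held exactly 1 pair of adjacent cysteine codons, which lies at codons 32 to 35 from the start codon in 7 genes, at codons 50 and 51 in Ccl6 and at codons 57 and 58 in Ccl9. The 30 coding bases around the pair are given for 8 of the genes from the GENCODE M21 transcripts of GRCm38, in map order and 5′ to 3′ on the coding strand, with the cysteine codons in capitals.
Ccl2: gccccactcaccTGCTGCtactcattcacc
Ccl7: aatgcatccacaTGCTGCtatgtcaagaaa
Ccl12: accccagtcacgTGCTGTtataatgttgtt
Ccl8: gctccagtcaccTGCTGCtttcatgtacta
Ccl5: gacaccactcccTGCTGCtttgcctacctc
Ccl9: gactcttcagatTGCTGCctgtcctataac
Ccl6: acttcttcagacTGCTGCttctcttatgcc
Ccl4: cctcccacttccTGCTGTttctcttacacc
Among these 8 the pair was written TGCTGT in Ccl12 and Ccl4 and TGCTGC in the others. Over the whole coding sequence, the most alike pair was Ccl2 and Ccl7, with 72.1% of aligned bases identical, followed by Ccl3 and Ccl4 with 71.1%. Ccl9 and Ccl6, the genes with 4 exons in place of 3, shared 70.5%. The least alike pair was Ccl7 and Ccl5 at 60.5%. Of the 31-base words in each gene's transcripts, 0 occurred in transcripts of another gene for Ccl2, Ccl7, Ccl12, Ccl8, Ccl3 and Ccl4. The share was 0.539% for Ccl5, 1.02% for Ccl6 and 3.98% for Ccl9, so that few reads of these genes could have been split between copies.

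UDCA lowered most of the cluster and raised Ccl5. Ccl2 and Ccl7, at one end, fell to 7.90% and 3.89% of their LPS level, whereas Ccl3 and Ccl4, at the other, fell to 61.1% and 38.8%, and Ccl5 rose 1.94-fold. Of the 9 genes, 8 were tested, since Ccl8 averaged under 1 TPM. By limma with Benjamini-Hochberg adjustment, 5 of the 8 were lower past both thresholds (Ccl2, Ccl7, Ccl9, Ccl6 and Ccl4), against a background of 8.44% of the 11796 genes tested. Past both thresholds 0 were higher, against 8.71% of all genes. At the false discovery rate alone 7 were lower and 1, Ccl5, was higher, against 32.3% and 40.2% of all genes, and an unadjusted p under 0.05 gave the same 7 and 1. Ccl6 and Ccl12 averaged under 1 TPM with UDCA and passed the filter only through the LPS libraries, so their fall is not counted as support. Among the 6 genes with at least 1 TPM in both groups, 4 were lower past both thresholds and 5 at the false discovery rate alone. In 5 of these 6 genes every LPS + UDCA library lay below every LPS library, as it did for 29.9% of the genes tested, and the groups were apart in the same way in Ccl6, Ccl12 and the untested Ccl8. For Ccl5 every LPS + UDCA library lay above, as for 37.0% of the genes tested. A 2-sided exact permutation test on TPM gave p = 0.029 for each of the 9 genes, the smallest p that 70 arrangements allow. Any gene whose groups do not overlap gets this p, as the 29.9% and 37.0% of genes above would. It therefore restates the lack of overlap and is not counted as further support for any of the 9.

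**Figure D1:**
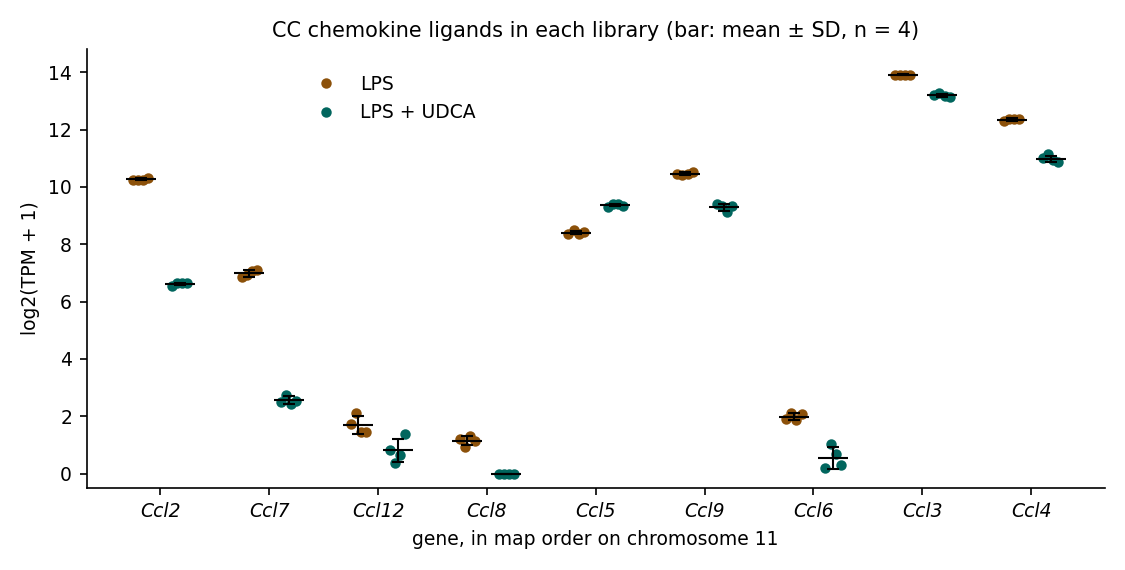
Each point is 1 library, with log2(TPM + 1) on the vertical axis and the 9 genes in map order on the horizontal axis, LPS in brown and LPS + UDCA in green, and bars give the mean ± SD of 4 libraries. The groups are apart in every gene, Ccl5 is the one gene with LPS + UDCA above LPS, and Ccl2 and Ccl7 have the widest gaps.

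Ccl2 encodes MCP-1, the main chemoattractant for CCR2-bearing monocytes. It lies on the plus strand of chr11:82035571-82037453 (GRCm38). In the LPS libraries Ccl2 had 1217, 1210, 1218 and 1270 TPM. In the LPS + UDCA libraries it had 92.5, 99.3, 98.3 and 98.4 TPM. The groups were far apart, and within each group 3 libraries lay close together with the remaining library to one side. The means were 1229 ± 27.7 and 97.1 ± 3.10 TPM (SD, n = 4), 12.7-fold lower. The log2 fold change was -3.65 (SE 0.033, 95% interval -3.72 to -3.57, limma adjusted p = 2.2e-11). Only 7 of the genes tested had a lower log2 fold change. Here as below, bulk RNA cannot tell fewer expressing cells from less RNA per cell. Gm17268, an annotated gene on the opposite strand of Ccl2, was listed at 0 in all 8 libraries.

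Ccl7, which encodes MCP-3, starts 10.1 kb from the start of Ccl2 on the same strand, at chr11:82045712-82047525. It had 113, 120, 131 and 137 TPM with LPS. It had 4.66, 5.73, 4.32 and 4.83 TPM with LPS + UDCA. Ccl7 was thus the lower of the pair in every library and the one with the larger relative fall. The means were 125 ± 10.6 and 4.88 ± 0.602 TPM (SD, n = 4), 25.7-fold lower. Its log2 fold change of -4.43 (SE 0.086, 95% interval -4.62 to -4.23, limma adjusted p = 9.6e-10) was the third lowest of all genes tested. The intervals of Ccl2 and Ccl7 did not overlap. The ratio of Ccl2 to Ccl7 within a library moved from between 9.26 and 10.7 with LPS to between 17.3 and 22.8 with LPS + UDCA.

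The other MCP genes were scarce in these cells. Ccl12, which encodes MCP-5 and lies at chr11:82101845-82103400, had 2.35, 3.28, 1.73 and 1.73 TPM with LPS. It had 0.76, 0.30, 0.58 and 1.57 TPM with LPS + UDCA. LPS + UDCA replicate 4 stood just under the lowest LPS libraries, and the groups did not overlap. A log2 fold change of -0.88 was fitted (SE 0.23, 95% interval -1.41 to -0.35, limma adjusted p = 0.0074), under the 2-fold minimum. Without LPS + UDCA replicate 4 it was -1.07 and past both thresholds (limma adjusted p = 0.0018). With all libraries and a pseudocount of 0.1 it was -1.54 and also past both. The mean TPM of Ccl12 was 2.83-fold lower, and the call depended on 1 library and on the pseudocount. Ccl8, which encodes MCP-2 and lies at chr11:82115185-82116799, had 1.29, 0.90, 1.48 and 1.19 TPM with LPS and was listed at 0 in all 4 LPS + UDCA libraries. No fold is given against 0, and the gene entered the fit only without the filter on low values. Its limma adjusted p there was 1.4e-05 over 23729 genes. The LPS + UDCA values had no spread, so this p is not counted as support. The MCP genes thus covered a range from 1.22 to 1229 TPM on average with LPS, and each was lower in every LPS + UDCA library.

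At the other end lie Ccl3 and Ccl4, on opposite strands with starts 13.2 kb apart. Ccl3 (minus strand, chr11:83647844-83649355) had 15127, 15467, 15254 and 15481 TPM with LPS. With LPS + UDCA it had 9410.5, 9889, 9268 and 8913 TPM. It was by far the most abundant ligand in both groups and ranked 3 among all genes with LPS and 6 with LPS + UDCA. The means were 15332 ± 172 and 9370.1 ± 404 TPM (SD, n = 4), 1.64-fold lower. Its log2 fold change was -0.71 (SE 0.032, 95% interval -0.78 to -0.64, limma adjusted p = 1.1e-07), past the false discovery rate but not the 2-fold minimum. Under quantile normalization it was -1.04 and past both.

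Ccl4 (plus strand, chr11:83662584-83664683) had 4987, 5283, 5230.2 and 5330 TPM with LPS. With LPS + UDCA it had 2045, 2239, 1945 and 1864 TPM. Ccl4 fell further than its neighbour, from 5208 ± 153 to 2023 ± 162 TPM (SD, n = 4), 2.57-fold lower. The log2 fold change was -1.37 (SE 0.053, 95% interval -1.49 to -1.25, limma adjusted p = 4.9e-08), and its interval did not overlap that of Ccl3. Among all genes Ccl4 ranked 10 by level with LPS and 85 with LPS + UDCA. The ratio of Ccl3 to Ccl4 moved from 2.95 ± 0.059 to 4.64 ± 0.170 (SD, n = 4).

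Ccl5 (minus strand, chr11:83525778-83530518) went the other way. It had 329, 360, 326 and 339 TPM with LPS. With LPS + UDCA it had 635, 673, 668 and 651 TPM. The lowest LPS + UDCA library was thus well above the highest LPS library. The means were 338 ± 15.0 and 656 ± 17.3 TPM (SD, n = 4). The log2 fold change was 0.95 (SE 0.038, 95% interval 0.87 to 1.04, limma adjusted p = 5.2e-08). The 1.94-fold rise missed the 2-fold minimum, and under quantile normalization the log2 fold change was 1.09 and past both thresholds. Higher log2 fold changes were not rare here, since Ccl5 ranked 1246 from the highest of the 11796 genes tested.

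Ccl9 and Ccl6 lie between Ccl5 and Ccl3 on the minus strand. Ccl9 (chr11:83572919-83578636) had 1385, 1368, 1399 and 1468 TPM with LPS. With LPS + UDCA it had 670.4, 638, 551 and 645 TPM. The groups were apart, with means of 1405 ± 43.7 and 626 ± 51.7 TPM (SD, n = 4). Ccl9 was 2.24-fold lower, with a log2 fold change of -1.17 (SE 0.058, 95% interval -1.30 to -1.04, limma adjusted p = 1.9e-07). Ccl6 (chr11:83587882-83593087) had 2.78, 3.35, 2.61 and 3.17 TPM with LPS. With LPS + UDCA it had 0.13, 1.05, 0.61 and 0.23 TPM. Its LPS + UDCA libraries differed among themselves by several fold while staying below every LPS library. The log2 fold change was -1.44 (SE 0.19, 95% interval -1.88 to -1.0, limma adjusted p = 1.2e-04). A noncoding gene on the opposite strand of Ccl6, E230016K23Rik, was listed at 0.14 to 0.61 TPM, and whether the counting used strand is not given in the sources used here. The mean of Ccl6 went from 2.98 ± 0.342 to 0.505 ± 0.418 TPM (SD, n = 4), 5.90-fold lower. The fitted log2 fold change of Ccl6 was -2.62 with a pseudocount of 0.1 and -2.95 with 0.01, so its size depended on the pseudocount.

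**Figure D2:**
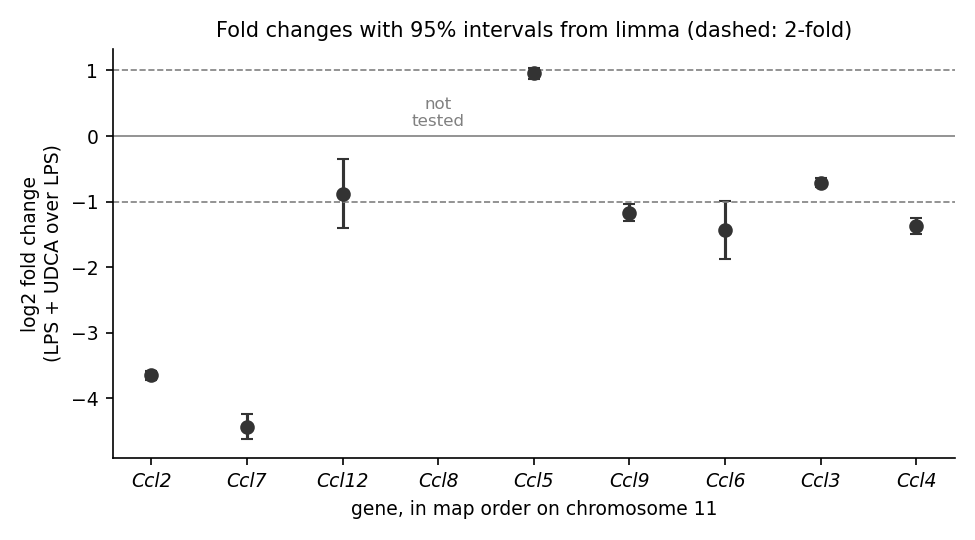
Points give the limma log2 fold change of LPS + UDCA over LPS on the log2(TPM + 1) scale with 95% intervals for the 8 genes tested, in map order, and dashed lines mark 2-fold. Ccl2 and Ccl7 lie at -3.65 and -4.43, the other lower genes between -1.44 and -0.71, and Ccl5 at 0.95.

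The contrast between the ends was taken within each library, as the mean log2(TPM + 1) of Ccl2 and Ccl7 minus that of Ccl3, Ccl4 and Ccl5. Ccl12, Ccl8, Ccl9 and Ccl6 were left out of it. The difference was -2.97, -3.01, -2.88 and -2.86 in the LPS libraries. It was -6.65, -6.57, -6.64 and -6.52 in the LPS + UDCA libraries. The ends were thus unequal already with LPS alone, and the change with UDCA was -3.66 on the log2 scale, a wider difference. The change lay mostly on the side of Ccl2 and Ccl7. Their mean went from 8.62 to 4.58, a difference of -4.04, and that of Ccl3, Ccl4 and Ccl5 from 11.55 to 11.18, a difference of -0.37 in which the rise of Ccl5 offset part of the fall of Ccl3 and Ccl4. The genes were chosen with earlier results known, so the contrast is a description and no p is given.

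Ratios between single genes show the same rearrangement without the pseudocount. Ccl5 stood at 0.271, 0.297, 0.268 and 0.267 of Ccl2 in the LPS libraries. In the LPS + UDCA libraries it stood at 6.86, 6.78, 6.79 and 6.61 times Ccl2. The order of the pair was thus turned in every library, and the mean ratio was 24.5-fold higher. The ratio of Ccl3 to Ccl2 went from 12.5 ± 0.244 to 96.6 ± 5.07 (SD, n = 4). The ratio of Ccl5 to Ccl9, neighbours on the same strand, went from 0.241 ± 0.015 to 1.06 ± 0.113 (SD, n = 4). A ratio shows unequal change of 2 genes and not which of them changed.

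**Figure D3:**
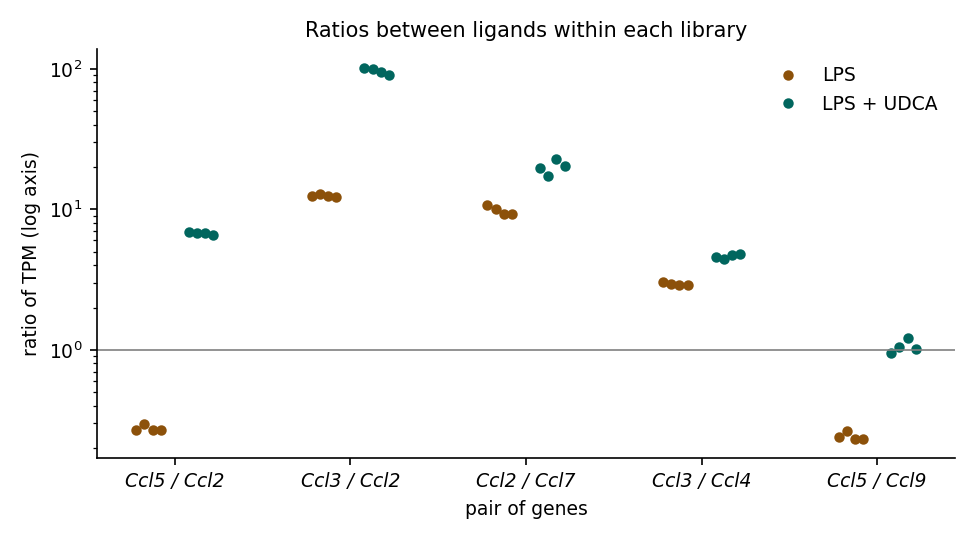
Each point is the ratio of TPM of 2 genes within 1 library, on a log axis, with LPS in brown and LPS + UDCA in green. Ccl5 over Ccl2 crosses the line at 1, from between 0.267 and 0.297 to between 6.61 and 6.86. Ccl5 over Ccl9 goes from between 0.231 and 0.263 to between 0.947 and 1.21, on both sides of the line. All ratios rise without overlap between groups.

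By level, the order with LPS was Ccl3, Ccl4, Ccl9, Ccl2, Ccl5, Ccl7, Ccl6, Ccl12 and Ccl8. Neighbours in that order had ranges over the libraries that were apart, except Ccl6 and Ccl12, whose ranges overlapped. With LPS + UDCA the order was Ccl3, Ccl4, Ccl5, Ccl9, Ccl2, Ccl7, Ccl12, Ccl6 and Ccl8. There the ranges of Ccl5 and Ccl9 overlapped, as did those of Ccl12 and Ccl6. Among all genes, Ccl2 ranked 140 by level with LPS and 1237 with LPS + UDCA. Ccl7 ranked 1019 and 8916, Ccl9 126 and 222, and Ccl5 409 and 213.

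The 9 ligands together held 23644 ± 371 TPM with LPS, and UDCA took this to 12779 ± 581 TPM (SD, n = 4). That was 2.42% and 1.33% of the listed TPM. The sum with UDCA was 0.540 of that with LPS, and most of the lost TPM were those of Ccl3 and Ccl4, the abundant genes, not of Ccl2 and Ccl7. Ccl3 made up 64.9% of the sum with LPS and 73.3% with LPS + UDCA, and Ccl4 22.0% and 15.8%. Ccl5 went from 1.43% to 5.14% of the sum. The MCP group of 4 genes went from 1358 TPM, 5.74% of the sum, to 103 TPM, 0.806% of the sum. The ligand RNA with UDCA was therefore less in sum and held a larger share of Ccl3 and Ccl5.

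**Figure D4:**
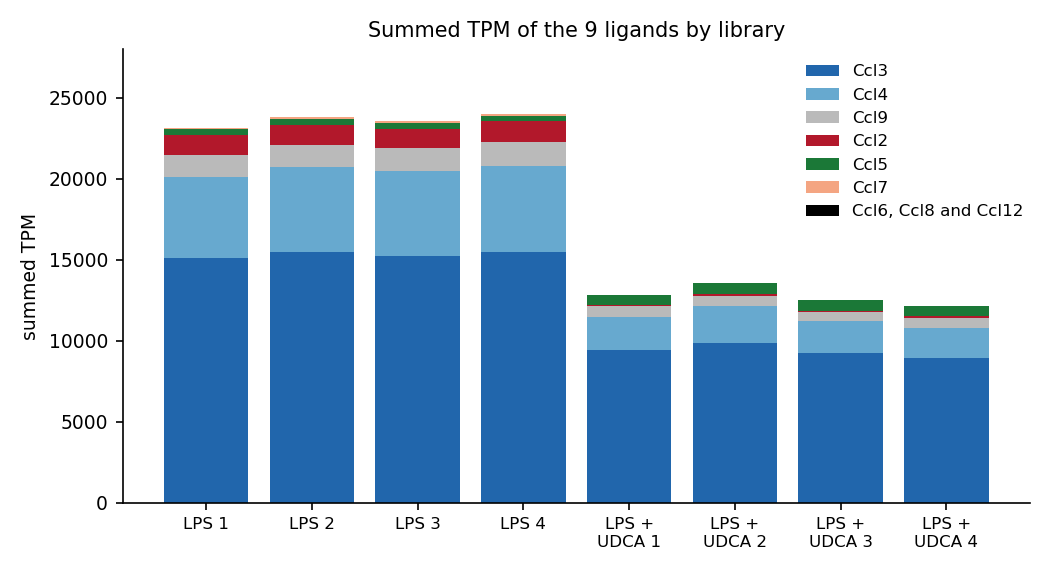
Stacked bars give the TPM of the 9 ligands in each library, from 0. The LPS libraries sum to between 23166 and 24030 TPM and the LPS + UDCA libraries to between 12178 and 13545 TPM, and the red band of Ccl2 nearly disappears while the green band of Ccl5 widens.

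Position within the cluster was compared with the genes around it. From the start of Ccl2 to the end of Ccl8 the MCP group spans 81.2 kb, and Ccl5 to Ccl4 span 138.9 kb. Between these groups lie 1409 kb with 21 tested genes that are no CC chemokines. In the window from 500 kb before Ccl2 to 500 kb after Ccl4 the table lists 86 other genes, of which 28 were tested. Of these, 3 were lower and 1 higher past both thresholds, 9 lower and 11 higher at the false discovery rate alone, and their median log2 fold change was 0.13, beside 0.08 over all genes tested. The shares of all genes were 8.44% and 8.71% past both thresholds and 32.3% and 40.2% at the false discovery rate alone. For the 8 ligands tested the median was -1.27. Wfdc17, a secreted protein gene of macrophages beyond Ccl4, fell from 270 ± 6.08 to 34.5 ± 5.26 TPM (SD, n = 4), a log2 fold change of -2.94. Dusp14, a phosphatase gene, fell from 10.9 ± 0.621 to 2.92 ± 0.737 TPM and Slfn9, a Schlafen family gene, from 2.32 ± 0.340 to 0.48 ± 0.117 TPM, having passed the filter only through the LPS libraries. The pseudogene Slfn10-ps rose from 6.61 ± 0.698 to 16.5 ± 1.82 TPM. Taf15 and Mmp28, the tested genes nearest to Ccl5 within the gap, both had a log2 fold change of 0.23.

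**Figure D5:**
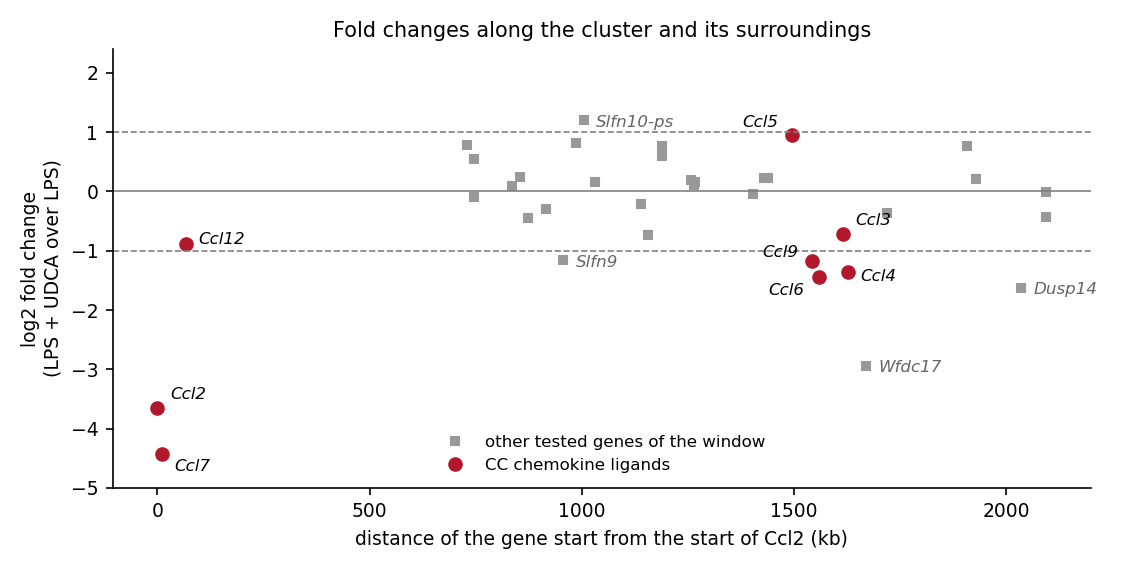
The log2 fold change of LPS + UDCA over LPS is plotted against the distance of each gene's start from the start of Ccl2 in kb, with ligands as red circles, other tested genes as grey squares and dashed lines at 2-fold. Ccl2 and Ccl7 lie at -3.65 and -4.43, most squares lie between the dashed lines, and the exceptions are the named Slfn9, Slfn10-ps, Wfdc17 and Dusp14.

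Promoter sequence was given by RefSeq (GRCm38.p6) for 5 of the 9 genes, Ccl12, Ccl8, Ccl9, Ccl6 and Ccl3. Not matched were Ccl2, Ccl7, Ccl5 and Ccl4. The 250 bases before each start were searched on both strands for the κB motif, for AP-1 (TGANTCA), C/EBP (TTNNGNAA), the interferon-stimulated response element and the TATA box (TATAAA). Shown are the abundant ligands among the 5, Ccl3, which was 1.64-fold lower, and Ccl9, which was 2.24-fold lower, both 5′ to 3′ on the minus strand with motif matches in capitals, at chr11:83649379-83649628 for Ccl3 and chr11:83578637-83578886 for Ccl9.
Ccl3: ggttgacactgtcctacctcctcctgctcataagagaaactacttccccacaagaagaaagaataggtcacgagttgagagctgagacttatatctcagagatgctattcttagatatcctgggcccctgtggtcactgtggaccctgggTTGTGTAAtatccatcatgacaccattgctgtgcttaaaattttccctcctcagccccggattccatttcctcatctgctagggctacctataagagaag
Ccl9: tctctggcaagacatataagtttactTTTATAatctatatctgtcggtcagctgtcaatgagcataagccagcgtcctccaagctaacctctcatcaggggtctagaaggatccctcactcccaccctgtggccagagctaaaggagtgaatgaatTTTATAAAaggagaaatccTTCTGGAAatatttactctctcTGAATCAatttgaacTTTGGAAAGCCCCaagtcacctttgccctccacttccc
In Ccl3 the match was a C/EBP motif, TTGTGTAA, 93 to 100 bases before the start. In Ccl9 the matches were a κB motif on the other strand 26 to 35 bases before the start, an AP-1 motif, TGAATCA, at 47 to 53 bases, C/EBP motifs at 31 to 38 bases, overlapping the κB match, and at 68 to 75 bases, and TATA motifs at 87 to 94 and at 219 to 224 bases. Ccl12 and Ccl8 each held TATAAA, 26 to 31 and 27 to 32 bases before the start, and Ccl6 held none of these letters in this window. Among 32851 promoter windows of the same length, 3.9% held the κB motif, 6.75% AP-1, 36.8% C/EBP, 2.98% the interferon-stimulated response element and 12.4% TATAAA. A match describes the letters and is not evidence of a bound site.

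Of the 15 other CC ligand genes, encoded mostly elsewhere in the genome, 2 reached the level for testing. By limma 0 of the 2 passed both thresholds, where 8.44% of all genes tested were lower and 8.71% higher. At the false discovery rate alone 1 was higher, against 40.2% of all genes, and 1 had an unadjusted p under 0.05. With 2 genes tested, these counts do not set the other ligands apart from all genes. Ccl11, between Ccl7 and Ccl12, and Ccl1, past Ccl8, lie in the same stretch of chromosome 11. Ccl11 was listed at 0 in all libraries and Ccl1 at 0.21 TPM at most. Ccl22, a ligand of CCR4, went from 5.10 ± 0.336 to 7.58 ± 0.385 TPM (SD, n = 4), a log2 fold change of 0.49 (limma adjusted p = 2.1e-04), below the 2-fold minimum. Ccl25 had 4.55 ± 0.699 and 3.54 ± 0.807 TPM (limma adjusted p = 0.091). With Ccl11 included, 8 of the 15 were listed at 0 in all libraries. Ccl20 was listed at 0 with LPS and at 0.41 to 0.93 TPM with LPS + UDCA. CC ligand RNA in these cells was thus nearly all from the chromosome 11 cluster, since the 15 other genes summed to at most 13.6 TPM in a library.

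Of 15 CC chemokine receptor genes, 5 were tested, of which 1 was lower and 2 were higher past both thresholds, where 8.44% and 8.71% of all genes were. Ccr1, which passed the filter on low values only through the LPS libraries and is a receptor for Ccl3, Ccl5, Ccl6 and Ccl9, fell from 3.77 ± 0.259 to 0.375 ± 0.060 TPM (SD, n = 4; log2 fold change -1.79, limma adjusted p = 5.4e-07). Ccr2, the receptor for Ccl2, Ccl7 and Ccl12, rose from 1.22 ± 0.235 to 6.30 ± 0.924 TPM (log2 fold change 1.72, limma adjusted p = 1.8e-06). Ccrl2, an atypical receptor, rose from 4.40 ± 0.489 to 20.6 ± 0.535 TPM (log2 fold change 2.01, limma adjusted p = 3.3e-08). Ccr2 was thus higher while its ligands were lower, at receptor levels of a few TPM.

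Genes of NF-κB, the type I interferon axis, mRNA decay and chemokine-trimming proteases were counted in the same way. The interferon list also holds interferon-induced genes besides regulators. The shares of all genes were 8.44% lower and 8.71% higher past both thresholds, and 32.3% and 40.2% at the false discovery rate alone. Of 11 tested genes of NF-κB subunits and inhibitors, 0 passed both thresholds, 4 were lower and 6 higher at the false discovery rate alone by limma and likewise at an unadjusted p under 0.05, and the median log2 fold change was 0.22. Of 15 tested genes of the type I interferon axis, 0 were lower and 1 was higher past both, with 4 lower and 9 higher at the false discovery rate alone and a median of 0.25. The called gene was Irf1, an interferon regulatory factor, with 5.81 ± 0.400 and 13.1 ± 0.329 TPM (SD, n = 4; log2 fold change 1.05, limma adjusted p = 6.7e-07), and it was not called under median-of-ratios scaling. Of 8 genes of chemokine mRNA decay and stability, 1 was lower past both, 6 were lower and 1 higher at the false discovery rate alone, and the median was -0.28. The called gene was Zfp36l2, which encodes an AU-rich element binding protein that promotes mRNA decay, with 20.4 ± 1.90 and 8.59 ± 0.212 TPM (log2 fold change -1.16). Zc3h12a, which encodes the RNase Regnase-1, stood at a log2 fold change of -0.98 and was called without LPS replicate 4 or without LPS + UDCA replicate 1 or 2. Of 4 genes of proteases that trim CC chemokines, 0 reached the level for testing.

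The genes most like 3 of the ligands in pattern were found among 7072 genes of at least 10 TPM, by the root mean square difference of log2(TPM + 1) relative to the LPS mean over the 8 libraries. Nearest to Ccl2 were Slc28a2, a nucleoside transporter gene, at a difference of 0.068, Aurkb, a mitotic kinase gene, at 0.084, and Fabp5, a fatty acid binding protein gene, at 0.104. Among those nearest to Ccl3 were Clic1, a chloride channel family gene, at 0.016 and Bsg, which encodes basigin, at 0.019. Nearest to Ccl5 were Cnpy2 and Xbp1, both at 0.034, and Slc3a2 at 0.046. The values of Ccl2, Slc28a2, Aurkb and Fabp5 all fell, by log2 fold changes of -3.57 to -3.65. Such likeness over 2 groups of libraries describes mostly the size of the change.

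Macrophage markers were present in every library but did not stay level. Of 8 markers, 4 were lower past both thresholds (Itgam, Lyz2, Cd68 and Csf1r) and 2 higher (Fcgr1 and Adgre1), against 8.44% and 8.71% of all genes, and their summed level was 3939 to 4191 TPM with LPS and 1776 to 1994 TPM with LPS + UDCA. Lyz2, the most abundant of them, went from 1988 ± 93.8 to 436 ± 20.0 TPM, and Adgre1, which encodes F4/80, from 46.6 ± 3.97 to 114 ± 8.24 TPM (SD, n = 4). The 16 markers of fibroblasts, epithelium, endothelium, lymphocytes, neutrophils and dendritic cells summed to at most 0.64 TPM in a library, with 8 of them at 0 throughout, including Epcam, Cd3e and Ly6g. The fall of most of the chemokine ligands was thus seen beside a fall of Itgam, Lyz2, Cd68 and Csf1r and a rise of Fcgr1 and Adgre1. The part of these marker changes in the fall of the ligands was not tested.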

How the data were processed

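RNA sequencing of J774A.1 cells was analysed in 8 libraries, 4 per group, grouped by the sample labels. The authors deposited 1 table of TPM per gene with 2 decimals. Per the labels the libraries were made with a TruSeq kit, and the submitters' processing notes name Bowtie 0.12.2 and the builds mm10 and GRCm38, with no role. The counting program and annotation are not given in the sources used here. Depth is unknown, so no counting error was computed.

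Genes averaging at least 1 TPM (11796) were compared as log2(TPM + 1) in limma 3.58.1 (R 4.3.3), with moderated variances that follow the mean level. A gene was called at a Benjamini-Hochberg FDR under 0.05 and a fold change of at least 2, the thresholds of the study. Single genes were also compared on TPM by an exact 2-sided permutation test (scipy 1.17.1). The procedure was tested on simulated data. The 9 ligands and all gene lists were chosen with earlier results of these data known. Named were the 9 ligands, up to 4 genes with the highest and 4 with the lowest log2 fold change of each list and of the surroundings past both thresholds, and the 3 genes most like Ccl2, Ccl3 and Ccl5, of which some items are not reported here. Ccl1, Ccl11, Ccl20, Ccl22, Ccl25, Zc3h12a, Taf15, Mmp28, Slfn8, Ifit1 and the markers were named after their values were seen. Positions are from GENCODE M21 on GRCm38, which lists 55141 of the 55487 identifiers on its reference chromosomes. Alternatives covered normalization, pseudocount, filter, thresholds, the mean-variance trend, the replicate block and leaving out each library.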

Additional observations from a re-analysis of the deposited data

Results flagged for a closer look

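Among 21 sets of 4 libraries, for the ligands and the values derived from them, Dixon's criterion marked 2, and chance marks about 1 in 20. Both were for Ccl2. LPS replicate 4 was the highest of its group at 1270.01 TPM, where the others had 1210 to 1218 TPM, a gap of 0.881 of the range of the group. LPS + UDCA replicate 1 was the lowest of its group at 92.51 TPM, where the others had 98.28 to 99.26 TPM, a gap of 0.855 of the range. Without any 1 library the log2 fold change of Ccl2 stayed between -3.66 and -3.62.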

How the results depend on the processing

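In 337 recomputed values under the alternatives, 317 kept their direction and their side of the thresholds or, for counts and values with no test, stayed within 1.5 times or 1 SD of the reported value, 5 passed both thresholds where they had not before and 15 moved, and 0 changed direction. Ccl12 passed both thresholds with a pseudocount of 0.01 (log2 fold change -1.68) or 0.1 (-1.54), and leaving out 1 library gave -1.07 to -0.74. Ccl6 kept its call but went to -2.95 and -2.62 with these pseudocounts. The count of lower ligands was 7 with a fold change minimum of 1.5 or none, 6 without the filter on low values and 4 with at least 1 TPM required in every library, where Ccl6 and Ccl12 were not tested. Under quantile normalization Ccl3 (-1.04) and Ccl5 (1.09) passed both thresholds, so that 1 ligand was higher past both, as with a fold change minimum of 1.5 or none, and the difference between the ends was -3.58. That difference was -3.79 with a pseudocount of 0.1 and -3.80 with 0.01. Under median-of-ratios scaling, where the median over all genes was -0.02 in place of 0.08, the summed TPM with LPS + UDCA was 0.501 of that with LPS, 0 genes of the type I interferon axis were higher and 2 of mRNA decay (Zfp36l2 and Zc3h12a) lower. With a pseudocount of 0.1 the counts were 2 (Irf1 and Ifit1) and 2, and 2 genes of the surroundings were higher (Slfn10-ps and Slfn8). Leaving out 1 library gave 1 to 2 lower genes of mRNA decay. With the replicate number as a block, 5 ligands were lower and 0 higher past both thresholds, as without it. The counts for the surroundings and for the lists of ligands, receptors, NF-κB, interferon axis, mRNA decay and protease genes were as without it too. The numbers were not taken as pairs, since deviations of same-numbered libraries correlated at -0.04 to 0.15, against -0.14 to 0.16 for different numbers. Over all alternatives the log2 fold change of Ccl2 was -3.76 to -3.57, of Ccl7 -4.68 to -4.38, of Ccl4 -1.48 to -1.32 and of Ccl9 -1.28 to -1.03. The depth behind low values such as those of Ccl6, Ccl8 and Ccl12 is unknown, and all libraries come from 1 cell line at 1 time, with RNA and not protein measured.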
